A study of Mus musculus with 8 samples.

Results

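The 10 genes described here encode chloride, bicarbonate and sodium-proton transporters of the gastric epithelium: Slc4a2, Slc26a7, Slc26a9, Slc26a6, Cftr, Slc9a4, Slc9a2, Slc9a3, Slc12a2 and Slc4a4. They were taken by symbol from 54532 genes counted in the corpus, the acid-secreting region of the stomach, and all 10 were among the 15862 genes that passed the low-count filter. Cftr and Slc9a3 passed it only through the mutant libraries. RNA was sequenced from 4 mutant mice of genotype Six2-Cre+/- PKAcaR fl/wt and from 4 control mice of genotype Six2-Cre+/- PKAcaR wt/wt. All 8 mice were of a mixed C57BL/6 and CD1 background, carried the Six2-Cre transgene and were untreated. Age and sex are not stated in the labels. PKAcaR is known from the literature as an allele of Prkaca, which encodes a catalytic subunit of protein kinase A (PKA). After recombination by Cre its product no longer needs cyclic AMP to be active. Cre was driven by the promoter of Six2, so recombination depends on where and when that promoter was active, which was not measured.

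An acid-secreting parietal cell exports protons through its apical pump and leaves bicarbonate behind, which it trades for chloride across the basolateral membrane by anion exchangers. Sodium-proton exchangers of the same membrane help to hold cell pH and volume, and apical channels and exchangers of parietal and surface mucous cells carry chloride and bicarbonate into the lumen. PKA opens the chloride channel CFTR by phosphorylating it and inhibits the sodium-proton exchanger NHE3, the product of Slc9a3, in other epithelia. These are effects on proteins, whereas the libraries measured transcripts.

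The libraries held 18184281 to 23814720 counted reads in mutants and 18942308 to 22814152 in controls. Prkaca averaged 37.9 ± 1.87 CPM in mutants and 80.2 ± 4.05 CPM in controls (SD, n = 4 each; log2 fold change -1.08, edgeR adjusted p = 0.000604), where CPM are counts scaled to a common library size with TMM factors, and the counts do not separate the modified from the unmodified copy. Six2 had 667 reads in mutant 2, against 33 to 77 in the other mutants and 78 to 244 in controls. Mutant 2 stood apart from the other mutants also across all genes tested, where its log2 CPM correlated with theirs at 0.829 to 0.875, against at least 0.972 among those 3. The 8 parietal cell markers summed to 202 CPM in mutant 2, to 1144 to 2586 CPM in the other mutants and to 15357 to 19590 CPM in controls, and none of the 8 was at 0 in any group. Atp4b, the beta subunit of the proton pump, had 22 reads in mutant 2. Control 3 and mutant 3 held squamous forestomach transcripts, with 3776 Krt5 reads in mutant 3, 484 in control 3 and at most 1 in any other library.

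Of the 10 transporters, 4 fell in mutant corpus, 2 rose and 4 did not pass the test (quasi-likelihood test of edgeR, p under 0.05 after Benjamini-Hochberg adjustment over all genes tested). Over all genes tested 20.2% were called, 10.8% lower and 9.39% higher. Those that fell were Slc4a2, Slc26a7, Slc26a9 and Slc26a6, all of them anion exchangers or transporters, and those that rose were Cftr and Slc9a3. The groups did not overlap in 7 of the 10, against 30.3% of all genes tested. These 7 include Cftr and Slc9a3, which had passed the low-count filter only through the mutants, where they were high. With no such filter 1 of the 10 was called higher, Cftr, and 4 lower. In that fit 1153 of 29210 genes were called higher and 1447 lower. The median log2 fold change of the 10 was -0.30, beside 0.07 over all genes tested. The list was chosen with results of these data known, so its counts describe these 10 genes only. Without mutant 2, 5 of the 10 were lower and 4 higher, where 33.5% of all genes tested were called, 18.3% lower and 15.2% higher. The 3 genes that this added were Slc9a2, Slc9a4 and Slc4a4.

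**Figure D1:**
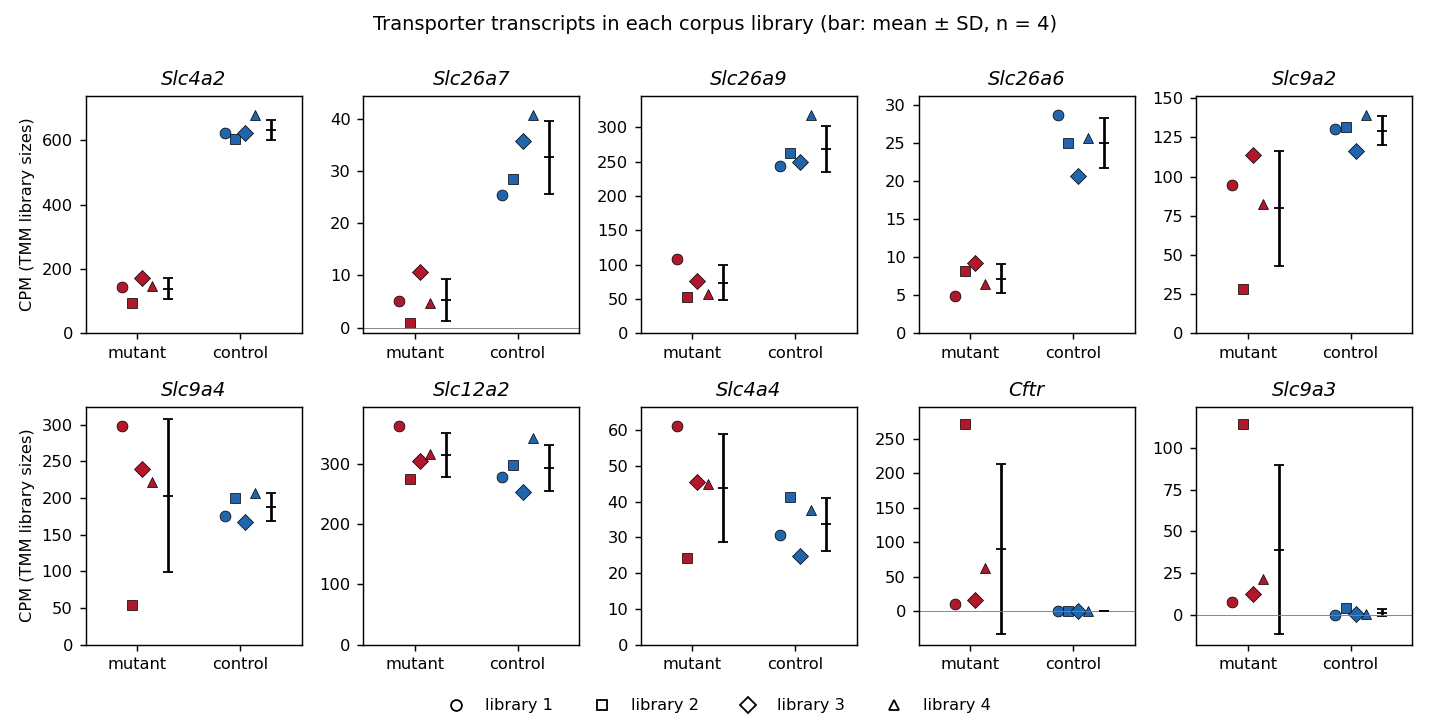
CPM of the 10 transporter genes in each library, mutants in red to the left of controls in blue, with the mean and SD (n = 4) as bars and the library number as symbol. The 4 mutants of Slc4a2 lie between 93.3 and 173 CPM and its 4 controls between 604 and 678 CPM, while the Cftr and Slc9a3 means in mutants are carried by mutant 2.

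Slc4a2 encodes the basolateral chloride-bicarbonate exchanger of the parietal cell (AE2) and was, per length, the most abundant of the 10 in controls. It lies on chromosome 5 (24423837 to 24440950, plus strand; ENSMUSG00000028962). Slc4a2 had 144, 93.3, 173 and 146 CPM in the 4 mutants, against 624, 604, 623 and 678 CPM in the 4 controls. The mutants all lay below the controls, and mutant 2 was the lowest. Its log2 fold change was -2.18 (SE 0.20, edgeR adjusted p = 0.000929), and mutants held 22.0% of the control mean. In a bulk sample, fewer cells of a type and less RNA per cell cannot be told apart. Of its 8322 exonic bases, 13.7% are shared with Fastk and Gm22333 on the opposite strand, and whether the counting used strand is not stated. Fastk averaged 69.8 CPM in mutants and 97.4 CPM in controls.

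Slc26a7 encodes a second basolateral anion exchanger of acid-secreting cells and lies on chromosome 4 (14502430 to 14621805, minus strand). It had 5.14, 0.90, 10.7 and 4.71 CPM in mutants, against 25.5, 28.4, 35.7 and 40.8 CPM in controls, without overlap. The log2 fold change was -2.60 (SE 0.60, edgeR adjusted p = 0.0200). Mutant 2, with 22 reads, held 2.76% of the control mean, whereas mutant 3 held 32.8%. That call was lost without control 3, control 4 or mutant 4 (adjusted p = 0.0543, 0.0522 and 0.0598).

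Slc26a9 encodes an apical chloride transporter of the gastric epithelium, and Slc26a6 an apical chloride-bicarbonate exchanger known from intestine and pancreatic duct. Slc26a9 (chromosome 1, 131744022 to 131771504, plus strand) had 109, 52.3, 75.8 and 56.7 CPM in mutants, against 244, 263, 249 and 318 CPM in controls. All mutants were lower than all controls (log2 fold change -1.87, SE 0.24, edgeR adjusted p = 0.00240). Slc26a6 (chromosome 9, 108853283 to 108913049, plus strand) had 4.88, 8.14, 9.18 and 6.47 CPM in mutants, against 28.6, 25.0, 20.7 and 25.6 CPM in controls. It fell by 1.80 on the log2 scale (SE 0.22, edgeR adjusted p = 0.00180), again without overlap. Unlike in Slc4a2, Slc26a7 and Slc26a9, mutant 2 was not the lowest library for Slc26a6, and mutant 1 was. Of the 8 parietal markers 7 also fell with edgeR, and 3 to 8 with 1 library left out. The 5 pit (surface mucous) cell markers summed to 4293 to 35768 CPM in mutants and to 45113 to 71334 CPM in controls, where edgeR called 0 of 5 lower, DESeq2 3, limma-voom 5 and edgeR without mutant 2 5. The 5 chief cell markers summed to 996 to 41618 CPM in mutants and to 298410 to 533948 CPM in controls, with 2 called lower. Over the 15862 genes tested edgeR called 1719 lower, DESeq2 2385 and limma-voom 3066, and edgeR without mutant 2 called 18.3% of its genes lower. Outside the epithelium, 7 of 7 smooth muscle markers fell (274 to 832 CPM in mutants, 2855 to 3812 CPM in controls). So did 4 of 4 tested enteric neuron markers (2.84 to 6.62 CPM in mutants, 26.9 to 41.3 CPM in controls). Of the 3 markers of interstitial cells of Cajal edgeR called 0, with overlapping sums (75.6 to 112 CPM in mutants, 103 to 142 CPM in controls). DESeq2 called 1 of these 3 lower, while limma-voom and edgeR without mutant 2 each called 2 lower and 1 higher. The part of these cell types in the 4 falls was not tested.

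The upstream sequences of genes that moved in each direction are shown for Slc4a2 and Slc26a9, which fell, and for Cftr and Slc9a3, which rose. RefSeq (GRCm38.p6) start sites were matched for 6 of the 10 genes, with 8 windows, and the 250 bases before the start are given 5′ to 3′ on the strand of the gene. For Slc4a2 the first of 2 windows is printed, at chr5:24424982-24425231. It lies before a RefSeq start but inside the gene span given above, which begins at 24423837, and shares 0 bases with GENCODE M21 exons. The others are Slc26a9 at chr1:131743772-131744021, Cftr at chr6:18170437-18170686 and Slc9a3 at chr13:74121163-74121412, and all 4 genes are on the plus strand. Capitals mark TATAAA or CCAAT on either strand.
Slc4a2: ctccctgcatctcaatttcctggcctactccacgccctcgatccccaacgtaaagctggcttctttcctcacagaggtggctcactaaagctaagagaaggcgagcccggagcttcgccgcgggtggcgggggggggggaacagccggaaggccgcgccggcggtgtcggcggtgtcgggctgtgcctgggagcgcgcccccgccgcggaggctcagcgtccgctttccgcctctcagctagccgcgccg
Slc26a9: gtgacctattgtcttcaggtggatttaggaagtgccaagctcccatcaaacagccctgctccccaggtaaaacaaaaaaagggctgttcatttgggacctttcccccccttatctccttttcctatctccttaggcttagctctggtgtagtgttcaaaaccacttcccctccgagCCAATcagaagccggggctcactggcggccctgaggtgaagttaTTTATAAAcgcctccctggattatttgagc
Cftr: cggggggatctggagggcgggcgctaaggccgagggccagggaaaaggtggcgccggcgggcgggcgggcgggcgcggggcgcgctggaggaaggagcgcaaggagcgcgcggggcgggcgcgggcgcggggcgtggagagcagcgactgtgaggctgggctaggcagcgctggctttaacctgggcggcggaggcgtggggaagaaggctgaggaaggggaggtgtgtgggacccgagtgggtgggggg
Slc9a3: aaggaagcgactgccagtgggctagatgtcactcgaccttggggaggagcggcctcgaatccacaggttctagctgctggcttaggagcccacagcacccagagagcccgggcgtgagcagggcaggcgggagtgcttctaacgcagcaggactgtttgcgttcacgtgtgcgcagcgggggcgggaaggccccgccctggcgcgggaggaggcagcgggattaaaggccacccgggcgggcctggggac
Of these 4 windows, Slc26a9 alone held capitals. They cover a CCAAT starting at position -74 from the start, and TTTATA and TATAAA starting at -30 and -28, which overlap. TATAAA or its reverse complement TTTATA occurred in 12.4% of 32851 mouse windows of the same length, and CCAAT or ATTGG in 33.8%. The cyclic AMP response element TGACGTCA (1.55% of all windows), its shorter form TGACG or CGTCA (17.8%) and the nuclear receptor motif AAGGTCA or TGACCTT (4.08%) were in none of the 8 windows of the 6 genes. Among these 8, a window of Slc4a4 and that of Slc26a6 had all 250 bases within GENCODE M21 exons of their own gene. Cftr had 76.4% G and C bases and 30 CG pairs, Slc4a2 69.2% and 28, Slc9a3 67.6% and 19, and Slc26a9 50% and 4, where the median of all windows was 52.4% and 6. A match or its absence describes these letters in these windows only.

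Cftr encodes the PKA-gated chloride channel that also passes bicarbonate, and lies on chromosome 6 (18170687 to 18322768, plus strand; ENSMUSG00000041301). It had 331, 6637, 377 and 1456 reads in mutants, against 4, 10, 3 and 2 reads in controls. In CPM this was 11.1, 271, 16.3 and 62.4 in mutants, against 0.25, 0.66, 0.19 and 0.12 in controls. All 4 mutants lay above all 4 controls, and mutant 2 held 9.08 times the mean of the other mutants. Summed over libraries the level was 291-fold higher in mutants, with a counting interval of 186 to 484 (95%, exact binomial, counting error only), since the 4 controls together held 19 reads. The log2 fold change was 8.20 (SE 1.38, edgeR adjusted p = 0.00625) and 6.61 without mutant 2 (SE 0.92, adjusted p = 0.00224). Cftr had passed the low-count filter only through mutants, and with no such filter its adjusted p was 0.0204.

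Slc9a3 encodes NHE3, the apical sodium-proton exchanger of absorptive epithelia (chromosome 13, 74121457 to 74169442, plus strand). It had 233, 2798, 290 and 502 reads in mutants, against 0, 63, 8 and 8 reads in controls. As CPM these were 7.78, 114, 12.5 and 21.5 in mutants, against 0, 4.15, 0.51 and 0.48 in controls. The groups did not overlap, and the highest value was again in mutant 2, followed by mutant 4, as for Cftr. Its log2 fold change was 4.93 (SE 1.33, edgeR adjusted p = 0.0350) and 3.45 without mutant 2 (SE 1.06, adjusted p = 0.0490). Control 2 set most of the control level, and without it the log2 fold change was 6.86. That call was lost without control 1, control 3, control 4 or mutant 4 (adjusted p = 0.0785, 0.10, 0.0920 and 0.0613) and without both libraries with squamous transcripts (adjusted p = 0.106). Slc9a3 too had passed the low-count filter only through mutants, and with no such filter it was not called (adjusted p = 0.0966).

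Marker lists of other cell types were set beside Cftr and Slc9a3. The 5 mucous neck cell markers summed to 17350, 9225, 27569 and 20806 CPM in mutants, against 3927, 6415, 3342 and 2533 CPM in controls, with 4 of 5 called higher. Mutant 2, highest for both transporters, was the lowest mutant here. Beside this count and those that follow, edgeR called 9.39% of all genes tested higher. The 6 metaplasia markers, all called higher by edgeR, summed to 2461 to 8641 CPM in mutants and to 162 to 294 CPM in controls. The 5 leukocyte markers summed to 228 CPM in mutant 2 and to 25.2 to 50.1 CPM in the other mutants. In controls they summed to 16.0 to 27.4 CPM, with 2 of 5 called higher and mutant 3 within the control range. Without control 2, without control 3 and with a replicate block 0 of these 5 were called. In these fits 783 of 16354, 705 of 16330 and 747 of 15862 genes tested were higher. Under the block 2 of 5 mucous neck and 5 of 6 metaplasia markers were higher. The 9 intestinal markers summed to 94.5 to 205 CPM in mutants and to 47.8 to 57.6 CPM in controls. Of 4 tested, Vil1 was called higher, while Fabp1, Fabp2 and Muc2 had log2 fold changes of -1.55, -1.95 and -1.45, not called here and called lower without mutant 2. The intestinal defining genes Cdx2 and Sis were at 0 in all 8 libraries, and Cdx1 had at most 2 reads in any. Of the 3 antral markers, which summed to 10.5 to 22.4 CPM in mutants and to 7.28 to 11.8 CPM in controls, 0 of 2 tested were called and Gast was at 0 throughout. The 6 pancreatic acinar markers summed to 0.37 to 1.11 CPM in mutants and to 7.78 to 9.77 CPM in controls, with 1 of 2 tested called lower. The part of these cell types in the transporter values was not tested.

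Slc9a4 (NHE4) and Slc9a2 (NHE2) encode sodium-proton exchangers of the gastric epithelium and lie next to each other on the plus strand of chromosome 1, at 40580081 to 40630725 and 40680574 to 40769273. Slc9a4 had 297, 54.3, 239 and 221 CPM in mutants, against 175, 200, 167 and 206 CPM in controls. Mutants 1, 3 and 4 lay above every control, and mutant 2 lay below every control. Over all libraries the log2 fold change was 0.12 (SE 0.43, edgeR adjusted p = 0.866), and without mutant 2 it was 0.43 (SE 0.13, adjusted p = 0.0279). Of its exonic bases, 21.3% are shared with the predicted genes Gm35801 and Gm37435 on the opposite strand.

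Slc9a2 had 94.4, 28.4, 114 and 82.2 CPM in mutants, against 130, 132, 116 and 139 CPM in controls. All mutants were below all controls, mutant 3 by little. The log2 fold change of -0.70 (SE 0.36) did not pass (edgeR adjusted p = 0.196), and without mutant 2 it was -0.42 (SE 0.12, adjusted p = 0.0238). The ratio of Slc9a2 to Slc9a4 within a library does not depend on how libraries are scaled. As a log2 value it was -1.66, -0.93, -1.07 and -1.43 in mutants, against -0.42, -0.60, -0.52 and -0.57 in controls. Relative to Slc9a4, Slc9a2 was thus 1.67-fold lower in mutants, in 4 of 4 (exact permutation test, two-sided, 70 assignments can give no p below this 0.0286, and adjustment over 13 relations gives 0.0338). The call was lost when any 1 control was left out (adjusted p up to 0.0929).

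Slc12a2 encodes NKCC1, the basolateral sodium-potassium-chloride cotransporter that loads secreting cells with chloride, and lies on chromosome 18 (57878678 to 57946821, plus strand). It had 363, 275, 305 and 316 CPM in mutants, against 279, 299, 254 and 343 CPM in controls, with overlapping groups. The log2 fold change was 0.10 (SE 0.14, edgeR adjusted p = 0.642). It was the single gene of the 10 that was called neither with all libraries nor without mutant 2.

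Slc4a4 encodes the sodium-bicarbonate cotransporter NBCe1 (chromosome 5, 88886818 to 89239653, plus strand). It had 61.0, 24.2, 45.6 and 44.9 CPM in mutants, against 30.6, 41.3, 24.8 and 37.8 CPM in controls. As for Slc9a4, mutants 1, 3 and 4 exceeded every control and mutant 2 was below them all. The log2 fold change of 0.39 (SE 0.28) did not pass (edgeR adjusted p = 0.348), whereas 0.59 without mutant 2 did (SE 0.18, adjusted p = 0.0269). Its log2 ratio to Slc4a2 was -1.24, -1.94, -1.92 and -1.70 in mutants, against -4.34, -3.87, -4.65 and -4.16 in controls. That is 5.88-fold higher relative to Slc4a2 in 4 of 4 mutants (exact permutation test, two-sided, p = 0.0286, adjusted p = 0.0338). Slc4a2 itself fell without overlap (log2 fold change -2.18), so a gene that changed little can also separate in this ratio. The test is thus no separate support for a change of Slc4a4, and the share of all genes that separate from Slc4a2 was not computed. With any 1 control left out the adjusted p of this test was 0.0531 and did not pass. An adjusted p also depends on the p of the other relations. The log2 difference stayed at 2.40 to 2.68 with any 1 library left out. The ratio of Slc26a9 to Slc26a7 overlapped between groups, with log2 values of 2.82 to 5.72 in mutants and 2.80 to 3.25 in controls (exact permutation test, p = 0.143, adjusted p = 0.143).

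**Figure D2:**
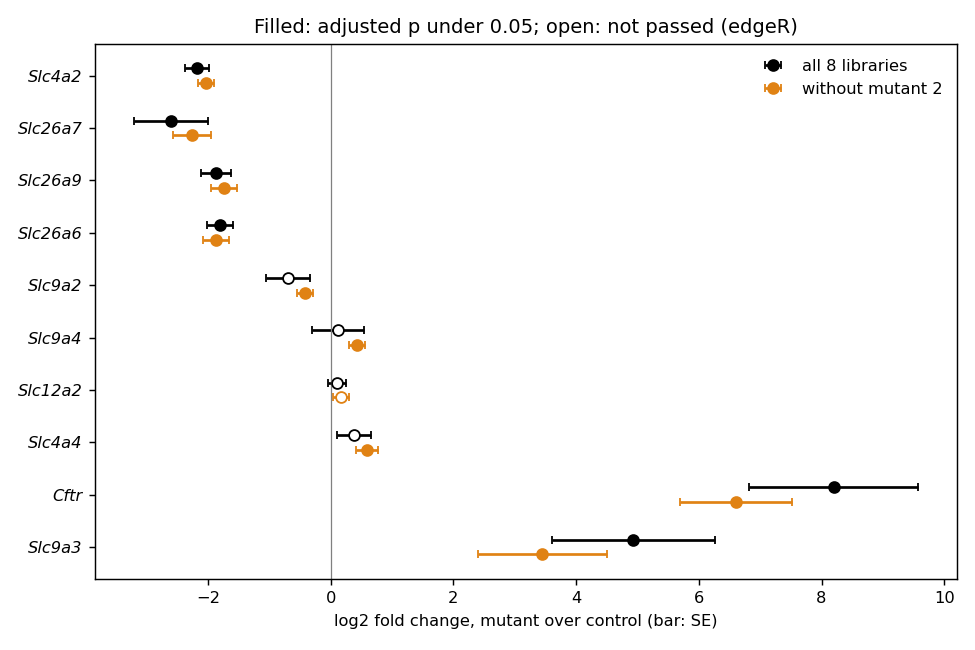
Log2 fold changes of the 10 genes, mutant over control, with SE bars, from all 8 libraries (black) and without mutant 2 (orange), with filled symbols for an adjusted p under 0.05. Slc9a2 (-0.70 and -0.42), Slc9a4 (0.12 and 0.43) and Slc4a4 (0.39 and 0.59) are open with all libraries and filled without mutant 2, and Slc12a2 is open in both.

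Library scaling bore on the genes near no change. With column totals as library sizes, which moved the median of all genes tested up by 0.70, Slc12a2 (0.79, edgeR adjusted p = 0.00552) and Slc4a4 (1.06, adjusted p = 0.0141) were called higher. In that fit 64.1% of all genes tested were called, 59.5% higher and 4.55% lower. Relative to the median of all genes in that fit they lay at 0.03 and 0.30. Slc9a2 then had a log2 fold change of -0.02, and the 4 genes that fell and the 2 that rose kept their direction and call.

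Levels per length were compared between genes with the deposited FPKM (counts scaled for gene length and library size). The order in mutants began with Slc12a2 at 48.0 ± 5.53 FPKM, Slc9a4 at 44.2 ± 22.7, Slc4a2 at 16.6 ± 3.97 and Slc26a9 at 13.9 ± 4.87 FPKM (SD, n = 4). In controls it began with Slc4a2 at 75.3 ± 3.79 FPKM, Slc26a9 at 50.9 ± 6.31, Slc12a2 at 44.6 ± 5.58 and Slc9a4 at 40.6 ± 4.00 FPKM. The deposited length of Slc12a2 was 6520 bases, against 10920 exonic bases in GENCODE M21, while the other 9 lengths were equal in both. Dividing the same reads by the longer length would put Slc12a2 at 28.6 ± 3.30 in mutants and 26.6 ± 3.33 in controls, below Slc9a4 on average in both. If reads were counted over the shorter length only, which is not stated, these values miss reads of the added bases and are too low. Its rank beside Slc9a4 is thus not settled. Slc4a2 led in controls, apart from the next gene, while the FPKM ranges of Slc26a9 and Slc12a2, and of Slc12a2 and Slc9a4, overlapped there. In mutants each gene overlapped with the next in order, except Slc4a4 (4.03 ± 1.39 FPKM) and Slc26a6 (1.32 ± 0.35 FPKM). Slc26a7 was the lowest in mutants, at 0.98 ± 0.74 FPKM, and Cftr the lowest in controls, at 0.04 ± 0.03 FPKM.

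Of the summed FPKM of the 10 genes, Slc4a2 took 8.06% to 12.7% in mutants and 29.5% to 32.9% in controls. Slc12a2 took 28.8% to 31.2% in mutants and 17.1% to 19.1% in controls, although its own level did not pass the test. Dividing its same reads by the longer length gives 19.4% to 21.3% in mutants and 10.98% to 12.3% in controls, with the limit given above. Slc9a4 took 8.56% in mutant 2, 31.2% to 35.7% in the other mutants and 16.1% to 17.8% in controls. Cftr took 25.1% in mutant 2, 0.78% to 5.17% in the other mutants and at most 0.03% in controls. The sum itself was 138 to 182 FPKM in mutants and 227 to 273 FPKM in controls, without overlap.

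**Figure D3:**
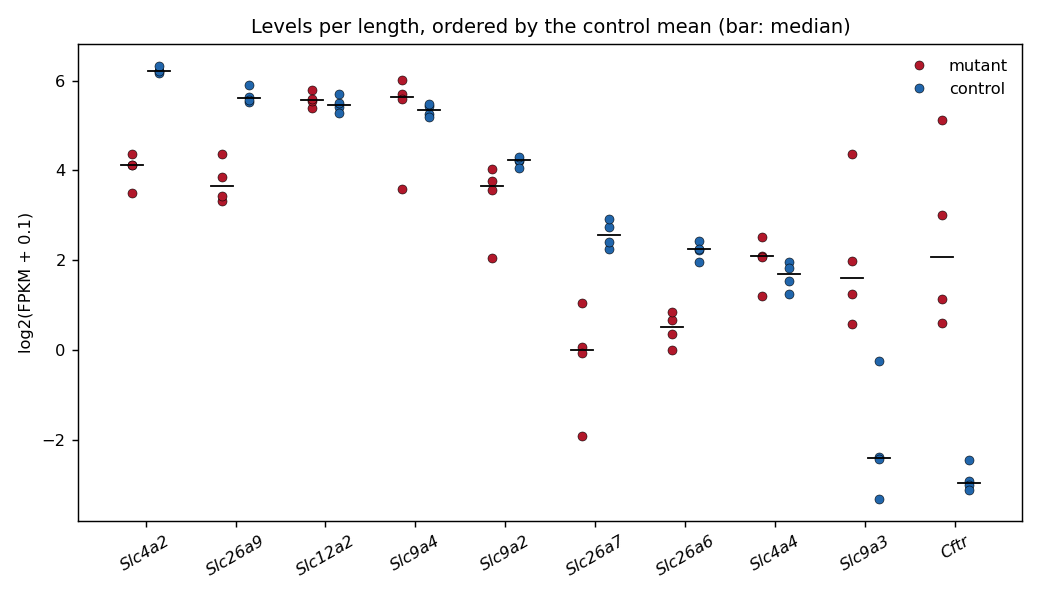
Level per length of the 10 genes as log2(FPKM + 0.1) in each library, mutants in red to the left of controls in blue, ordered by the control mean, with medians as bars. Slc4a2 is the highest gene in controls (75.3 FPKM on average) and falls below Slc12a2 and Slc9a4 on average in mutants (16.6 FPKM).

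Each transporter was also set against the parietal cell markers Atp4a, Atp4b, Kcne2, Kcnq1, Kcnj15, Hrh2, Clic6 and Esrrg. Their mean log2 CPM was 5.89, 2.46, 6.74 and 6.05 in mutants, against 8.93, 8.86, 8.99 and 9.10 in controls, a difference of -3.69. Slc4a2 lay 1.28, 4.09, 0.69 and 1.15 log2 units above that mean in mutants, against 0.36, 0.38, 0.29 and 0.30 in controls. Relative to these markers Slc4a2 was higher in 4 of 4 mutants, by 1.47 log2 units on average (exact permutation test, two-sided, p = 0.0286, adjusted p = 0.0338), a call also lost when any 1 control was left out (adjusted p up to 0.124). Slc26a7 lay at -3.26 ± 0.57 log2 units from the marker mean in mutants and -3.96 ± 0.22 in controls (SD, n = 4 each), with overlapping groups (exact permutation test, p = 0.0571, adjusted p = 0.0619). That difference passed with Atp4a and Atp4b alone as markers (2.81) and with FPKM (0.82; adjusted p = 0.0310 in both). Without mutant 2 it was 0.43, and that of Slc4a2 was 0.71. In 9 of the 10 genes the difference from the marker mean did not overlap between groups, but so it was in 95.4% of all genes tested. A share of 9 in 10 is thus near that of all genes.

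**Figure D4:**
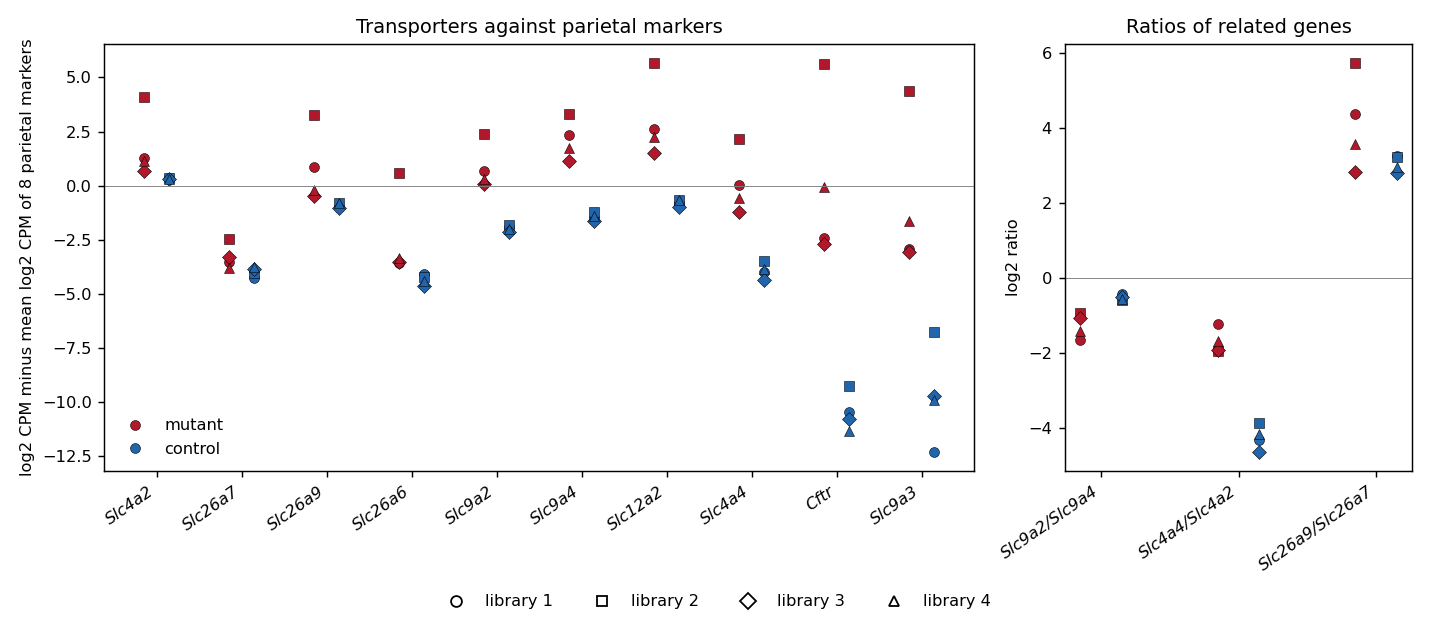
Left, log2 CPM of each transporter minus the mean log2 CPM of 8 parietal markers in each library, mutants in red to the left of controls in blue; right, log2 ratios of 3 pairs of related genes. Slc26a7 alone of the 10 overlaps between groups on the left, and mutant 2 (squares) is the highest library for all 10.

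Other genes of the same families were followed in 6 lists, where 6 of 53 tested genes rose and 6 fell, beside the 9.39% and 10.8% of all genes tested. Among 5 tested SLC4 genes Slc4a7, the sodium-bicarbonate cotransporter NBCn1, was called, at 43.3 CPM in mutants and 24.9 CPM in controls (log2 fold change 0.80, SE 0.12, edgeR adjusted p = 0.00449). Slc4a5 (2.03, SE 0.80) and Slc4a11 (2.05, SE 0.69) did not pass. DESeq2, limma-voom and edgeR without mutant 2 each called 3 of these 5 SLC4 genes higher. Over all genes tested, these fits called 2309, 2602 and 2447 higher. Of 4 tested SLC26 genes, Slc26a2, a sulfate transporter, rose by 0.81 (SE 0.24, edgeR adjusted p = 0.0481) with overlapping groups. Settings where Slc26a2 was not called included any 1 control, mutant 1 or mutant 3 left out and a replicate block. Slc26a10 (-1.29, SE 0.56) and Slc26a8 (-0.49, SE 0.35) did not pass. None of 7 tested SLC9 genes outside the 10 passed edgeR, where Slc9a5 had the smallest p (1.38, SE 0.46, adjusted p = 0.0687), and Slc9b2 was at -0.81 (SE 0.52). At an unadjusted p under 0.05 there were 2, and DESeq2 called 1 higher and limma-voom 1 higher and 1 lower. Of 7 tested SLC12 genes, Slc12a8 averaged 65.2 CPM in mutants and 19.96 CPM in controls (log2 fold change 1.71, SE 0.18, edgeR adjusted p = 0.00132), and Slc12a9 rose by 0.32 (SE 0.09), with 1 call left in the family when any 1 control was left out. Slc12a7, the potassium-chloride cotransporter KCC4, was at -0.64 (SE 0.21, adjusted p = 0.0614), with all mutants below all controls. DESeq2 and limma-voom each called 2 of the 7 SLC12 genes higher and 2 lower. Without mutant 2 edgeR called 2 higher and 1 lower.

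Scaffold and kinase genes that act on these transporters were the list with most falls, 4 of 12 tested, with 1 rise. Over all genes tested 10.8% were lower and 9.39% higher. With 1 library left out 2 to 5 fell and 1 rose, the falls being 2 without control 3 and without mutant 4. With column totals 1 fell and 4 rose, where 4.55% of all genes tested were lower and 59.5% higher. Slc9a3r1, whose product NHERF1 tethers NHE3 and CFTR at the apical membrane, averaged 81.2 CPM in mutants and 148 CPM in controls (log2 fold change -0.87, SE 0.12, edgeR adjusted p = 0.00273). Wnk4, a kinase that regulates chloride transporters, fell by 1.81 (SE 0.31). Slc9a3r2, a second NHERF scaffold (-0.98, SE 0.24), and Chp1, a cofactor of sodium-proton exchangers (-0.70, SE 0.16), are named after their values were seen. Shank2, a scaffold of epithelia and synapses, rose by 1.71 (SE 0.26).

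Of 18 tested chloride channel genes, Clic6 and Clic3 fell and Lrrc8d rose. Clic6, which is also among the parietal markers, averaged 157 CPM in mutants and 1103 CPM in controls (log2 fold change -2.81, SE 0.40), and Clic3 changed by -1.79 (SE 0.45). Lrrc8d, a subunit of the volume-regulated anion channel, rose by 1.15 (SE 0.14). Without mutant 2, 7 of 20 tested chloride channel genes rose and 2 fell, where 15.2% of all genes tested were higher and 18.3% lower. With column totals 4 of 5 SLC4 and 14 of 18 chloride channel genes were higher, beside the 59.5% of all genes tested.

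**Figure D5:**
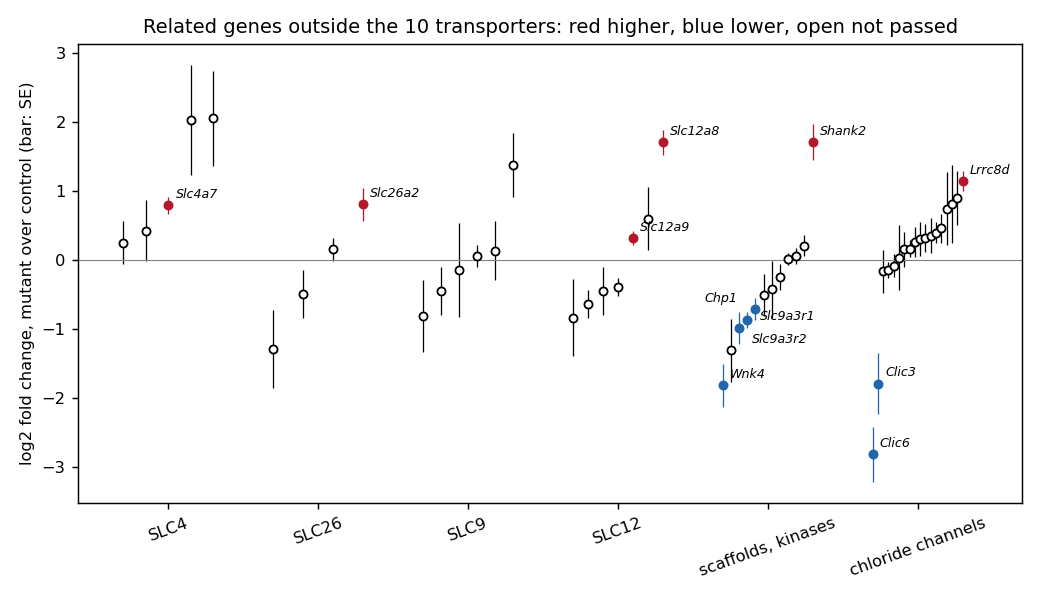
Log2 fold changes, mutant over control, with SE bars, of tested genes of the 6 related lists, without 1 gene that is not reported here, each list ordered by value, with genes called higher in red, called lower in blue and others open. Slc12a8 and Shank2 (both 1.71) are the largest rises called and Clic6 (-2.81) the largest fall.

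For each transporter that passed, the genes, other than predicted genes and pseudogenes, with the nearest log2 CPM profile over the 8 libraries were found, each profile centred on its own mean. The nearest to Slc4a2 were Jph4 and Mccc1, with a root mean square difference of 0.16 log2 units each. Slc26a7 was nearest to Slc16a7 (0.23) and Nrtn (0.29), Slc26a9 to Edaradd and Hibadh (0.20 each) and Slc26a6 to St3gal5 and Prcd (0.19 each). Cftr was nearest to Wfdc18 (0.57) and Wisp2 (0.72), and Slc9a3 to Ccl3 and Chil3, farther off (1.02 and 1.03). Ccl3 itself had a log2 fold change of 4.36 (SE 1.45) and did not pass (edgeR adjusted p = 0.0652).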

How the data were processed

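Per the labels' protocols, corpus tissue was kept in RNAlater and its polyA RNA sequenced. Deposited were 2 tables by the authors, one of unnormalized counts and one of FPKM, both by Ensembl gene. The submitters' processing notes name CASAVA, fastp, STAR 2.5 and featureCounts without roles. The build, the strand setting and how FPKM were scaled are not stated in the labels or files. Of 54532 count table rows, 54409 IDs are in GENCODE M21 (GRCm38) and 53499 have the same start and end. Coordinates are those of the count table.

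Columns were matched to samples by name, where the heading SCI was taken as SC1. Chi-square over degrees of freedom was at least 15.4 for each pair within a group, far more than sampling noise, and no libraries were merged. The series' design text calls the 4 samples of each group biological replicates.

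Counts were fitted with edgeR 4.0.16 (R 4.3.3; filterByExpr, TMM, robust quasi-likelihood) over all 8 libraries, with Benjamini-Hochberg adjustment over 15862 genes and a threshold of 0.05. The fit was tested on simulated data. A floor of 3 reads was 0.100 to 0.129 CPM in mutants and 0.179 to 0.198 CPM in controls. Ratios within a library used log2 CPM with a prior count of 2 and an exact permutation test over 70 assignments. Intervals cover counting error only. Alternatives were DESeq2 1.42.0, limma 3.58.1, other scalings and filters, log2(FPKM + 1) and log2(FPKM + 0.1), a replicate block and leaving out libraries. The replicate numbers were not used as pairs in the main fit. Values of 1 further family list and of 1 gene in another are not reported here. Levels with GENCODE M21 exonic lengths were added after seeing the data. The genes and lists were chosen with earlier results of these data known. Named were all 10 transporters, Prkaca and Six2, in each family list the 3 genes of smallest p and the largest change in the rarer direction, and for each transporter that passed the 2 nearest profiles among genes with a mean of at least 1 CPM.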

Additional observations from a re-analysis of the deposited data

Results flagged for a closer look

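In 5 of 50 groups of 4 libraries 1 library stood far from the other 3, where chance gives about 1 in 20. The measure is the gap to the nearest library as a share of the range of the group, and 0.829 is its critical value for 4 libraries. In mutants, Slc9a3 CPM reached 0.871 through mutant 2 (114 CPM, against 7.78 to 21.5 in the other mutants). In controls, Slc9a3 CPM reached 0.877 through control 2 (4.15 CPM, against 0 to 0.51 in the other controls). Prkaca CPM in mutants reached 0.931 and Six2 CPM in mutants 0.917, both through mutant 2. Mutant 2 had 40.7 CPM of Prkaca, close to the 36.8 to 37.1 CPM of the other mutants, whose narrow range raises the measure. It had 27.3 CPM of Six2, against 1.14 to 3.30 CPM in the other mutants. Slc26a6 relative to the parietal markers reached 0.941 in mutants, at 0.59 log2 units in mutant 2 and -3.58 to -3.33 in the other mutants. Cftr in mutants, although highest in mutant 2, was not among them.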

How the results depend on the processing

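Slc4a2, Slc26a9 and Slc26a6 kept their direction and call in all 20 alternatives, with log2 fold changes of -2.32 to -1.49, -2.12 to -1.18 and -2.03 to -1.11, and no value for the 10 transporters reversed in a called result. Genes called numbered 3208, against 5668 with limma-voom, 10165 with column totals, 1824 with a replicate block, 1410 without both libraries with squamous transcripts and 1717 to 5400 with 1 library left out. With column totals 9443 of the calls were higher and 722 lower, against 1489 and 1719. Of the 10 transporters 2 were higher, against 4 with column totals, 1 with no low-count filter, 1 without the squamous libraries, 1 with log2(FPKM + 1), 0 with log2(FPKM + 1) and no filter (limma; 2 at an unadjusted p under 0.05) and 1 to 4 with 1 library left out. Those lower were 4, and 3 to 5 with 1 library left out. Over all genes tested, 1153 of 29210 were higher with no low-count filter and 587 of 16005 without the squamous libraries. With log2(FPKM + 1) there were 1087 of 14866 higher, and 827 of 29210 with no filter. With 1 library left out, 665 to 2447 of 16124 to 16354 genes were higher and 1018 to 2953 lower. Slc9a3 lost its call in 8 of 20 alternatives, and Cftr in 1, log2(FPKM + 1) with no filter (2.75, adjusted p = 0.0781). With 1 library left out, the log2 ratio difference was -0.85 to -0.61 for Slc9a2 over Slc9a4, 2.40 to 2.68 for Slc4a4 over Slc4a2 and 0.53 to 1.5 for Slc26a9 over Slc26a7. The first 2 lost their calls when any 1 control was left out (exact permutation test, adjusted p up to 0.0929 and 0.0531). They kept them when any 1 mutant was, and the last was called without mutant 3 (adjusted p = 0.0310). These adjusted p also depend on the p of the other relations. The causes of these changes were not tested. Over all genes tested, deviations of same-numbered libraries correlated at -0.06 to 0.07, and 1 of 4 mutants correlated best with its own number. Such a correlation cannot exclude pairing in single genes, and control 3 and mutant 3 both held squamous transcripts. Under the block the transporters called were again 2 higher and 4 lower. There the SE was 0.62 for Cftr and 0.48 for Slc9a3 (edgeR adjusted p = 0.00779 and 0.00980), against 1.38 and 1.33 without the block. With 2 to 10 Cftr reads in a control library, the depth limits how well its control level and fold are known.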
